A study of Mus musculus with 10 samples.

Results

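Peripherin (Prph), the homeobox gene Tlx2 and 8 further genes of the neuronal-type cytoskeleton were followed across mouse fibroblasts and Sertoli-like cells. Prph and Tlx2 were chosen because their measured levels were far higher in the Sertoli-like cells than in fibroblasts, so that difference is described here with no test. The other 8 were taken as relatives by family: vimentin (Vim), desmin (Des) and glial fibrillary acidic protein (Gfap), which with Prph are type III intermediate filament genes, nestin (Nes), the neurofilament genes Nefl and Nefm and alpha-internexin (Ina), which are type IV, and the neuronal beta-tubulin gene Tubb3. Every array feature that carried one of these 10 symbols was used, which gave 31 of 62976 features. All 10 genes, of 16650 genes tested, had at least 1 feature bright enough to test. The question put to them was whether the higher Prph and Tlx2 levels came with a wider set of neural genes.

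Total RNA from cultured cells was measured on 10 Agilent arrays labelled with Cy3, 1 sample per array. Induced embryonic Sertoli-like cells (ieSCs) had been made from mouse embryonic fibroblasts (MEFs; 4 arrays) or from female tail tip fibroblasts (TTFs; 4 arrays), and unconverted MEFs gave 2 arrays. All cells came from a congenic strain homozygous for R26-M2rtTA, the doxycycline-responsive activator that the MEFs therefore carried too. Beside it the ieSCs carried 5 transgenes (Nr5a1, Wt1, Dmrt1, Gata4, Sox9), and they had been kept in F12/DMEM without doxycycline for 2 weeks. The MEFs carried none of these 5 transgenes and were cultured for 2 weeks as well. Unconverted TTFs were not analysed here, so in any comparison of TTF-derived ieSCs with MEFs the conversion and the starting cell cannot be told apart. The arrays had 5 names with 2 arrays each: the MEFs, and names 1 and 2 of each kind of ieSC. Letters a and b only tell apart the arrays of an ieSC name. Nothing in the labels ties arrays of a shared name to separate cultures, so p-values here reflect the spread among arrays and names, which may in part be technical.

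The level of a gene is the deposited log2 intensity of its brightest usable feature. The 40th percentile of an array lay between 4.988 and 5.023, and levels under about 5 belong to the dim end of the array. Arrays of a name correlated at 0.9896 to 0.9966 over all features. The labelled cell kinds were set against their defining markers. Thy1, a fibroblast surface protein, had a mean level of 17.24 on the MEF arrays, 5.33 on the MEF-derived and 4.54 on the TTF-derived ieSC arrays. Collagen Col1a1, another fibroblast marker, stood at 17.34, 17.03 and 16.74 in the same order. Its partner chain Col1a2 stood at 18.70, 7.72 and 7.66, and the growth factor receptor Pdgfra, also of fibroblasts, at 13.33, 7.44 and 9.71. The Sertoli ligand Dhh stood at 5.47, 12.20 and 13.20. Anti-Müllerian hormone (Amh), a defining product of embryonic Sertoli cells, was above the 40th percentile on 0 MEF arrays and 1 ieSC array. Wt1, Sox9 and Gata4 are Sertoli markers but also transgenes of the ieSCs. Wt1 was higher in ieSCs (11.49, 17.12 and 17.06). Sox9 (11.18, 7.96 and 7.48) and Gata4 (7.59, 5.77 and 5.61) were lower in ieSCs than in MEFs, which goes against the Sertoli label for these markers. The array number limits the precision of what follows.

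Intermediate filaments are rope-like polymers of the cytoskeleton. Vimentin is typical of mesenchymal cells and is also present in Sertoli cells, desmin belongs to muscle, glial fibrillary acidic protein to astrocytes, nestin to neural progenitors and some other dividing cells, and peripherin, the neurofilament subunits and alpha-internexin to neurons. Peripherin is known from neurons of the peripheral nervous system, and Tlx2 is a homeobox transcription factor known from the enteric nervous system and other derivatives of the neural crest. Tubulin beta-3 is widely used as a marker of neurons.

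Promoter sequence was at hand for 7 of the 10 genes, from RefSeq with build GRCm38.p6, and not for Tlx2, Nefl and Nefm. The 250 bases before the start site are printed for the 3 of these genes with higher levels in the ieSCs, Prph, Nes and Tubb3, and for Vim, the type III relative that was bright in all groups, to set their core promoters side by side. The windows are Prph at chr15:99054924-99055173, Nes at chr3:87970843-87971092, Tubb3 at chr8:123411303-123411552 and Vim at chr2:13574061-13574310, all on the plus strand. The start site that RefSeq gives for the Prph promoter lies within the annotated gene, which spans 99053579 to 99058978 of chromosome 15. Capitals mark matches to the motifs searched.
Prph: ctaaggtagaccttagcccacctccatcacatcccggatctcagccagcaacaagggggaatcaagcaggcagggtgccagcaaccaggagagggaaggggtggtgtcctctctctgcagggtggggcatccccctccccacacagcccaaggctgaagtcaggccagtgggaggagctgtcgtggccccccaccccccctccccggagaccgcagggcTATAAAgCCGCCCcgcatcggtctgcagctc
Nes: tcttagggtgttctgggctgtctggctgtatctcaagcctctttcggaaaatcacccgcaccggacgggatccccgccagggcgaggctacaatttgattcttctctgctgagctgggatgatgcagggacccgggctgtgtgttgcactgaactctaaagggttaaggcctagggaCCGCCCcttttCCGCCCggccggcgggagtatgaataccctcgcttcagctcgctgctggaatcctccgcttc
Tubb3: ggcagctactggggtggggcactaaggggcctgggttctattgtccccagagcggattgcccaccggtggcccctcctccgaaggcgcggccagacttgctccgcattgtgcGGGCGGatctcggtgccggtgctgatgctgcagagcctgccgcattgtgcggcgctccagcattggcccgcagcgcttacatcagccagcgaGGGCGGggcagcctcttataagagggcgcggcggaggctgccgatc
Vim: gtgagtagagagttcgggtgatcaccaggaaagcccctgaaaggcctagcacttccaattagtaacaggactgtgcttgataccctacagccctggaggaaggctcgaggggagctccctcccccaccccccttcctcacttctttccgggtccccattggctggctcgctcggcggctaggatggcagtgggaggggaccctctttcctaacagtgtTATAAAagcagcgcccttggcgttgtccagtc

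Matches to 6 short motifs were searched on both strands of these 250-base windows, and no match overlapped another. The TATA box (TATAAA) began at position -31 from the start site in Prph and at -32 in Vim, and was in 12.4% of 32841 promoters of the same length. Among the 7 genes it was found in these type III genes only. The GC box (GGGCGG, here also as its reverse complement) was in 32.7% of all promoters. It lay at -24 in Prph, at -73 and -62 in Nes and at -138 and -46 in Tubb3, with a pair of matches in Ina and in Des too. Letters bound by the kinds of factor used for conversion were looked for as well: AGATAA for GATA factors (9.99% of all promoters), AACAAT for SOX factors (9.43%), AAGGTCA for NR5A receptors (4.08%) and GCGTGGGNG for WT1 (1.65%). None of these was in the window of any of the 7 genes, which says only that these letters are absent from these windows. CpG dinucleotides numbered 7 in the Prph window, 8 in Vim, 15 in Nes and 21 in Tubb3, against a median of 6 over all promoters.

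Prph went from the dim end of the MEF arrays to a bright signal on every ieSC array. Its level was 5.22 and 5.12 on the MEF arrays, 14.81, 14.84, 14.55 and 14.39 on the MEF-derived ieSC arrays 1a, 1b, 2a and 2b, and 17.31, 17.00, 16.73 and 16.71 on the TTF-derived ieSC arrays in the same order. All ieSC arrays lay far above both MEF arrays, and the TTF-derived arrays all lay above the MEF-derived ones. Group means were 5.17 ± 0.07 (SD, n = 2) for MEFs, 14.65 ± 0.21 (SD, n = 4) for ieSCs from MEFs and 16.94 ± 0.28 (SD, n = 4) for ieSCs from TTFs. As log2 differences from MEF these are 9.48 and 11.77, and the mean of both kinds of ieSC was 10.62 ± 0.22 (SE) above MEF, the highest rank among 16650 genes. These values chose the gene and are given as a description. In cultures measured as a whole, more cells with the transcript and more transcript per cell cannot be told apart.

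The comparison of the ieSCs by starting cell did not enter the choice of Prph. Prph was 2.29 ± 0.19 higher on the log2 scale in TTF-derived than in MEF-derived ieSCs, a fold of 4.89 with a 95% interval of 1.86 to 2.73 on the log2 scale (limma, adjusted p = 2.46e-05). In this comparison 16.8% of all genes were called higher and 19.3% lower, and 4.2% of genes had a larger absolute difference than Prph. Name 2 minus name 1 was -0.35 for MEF-derived cells and -0.43 for TTF-derived cells, small beside the gap between the kinds. Prph had 1 feature, so no second probe of the gene was read.

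Tlx2 also stood at the dim end of the MEF arrays and high in all ieSCs, with the kinds of ieSC in the opposite order. The MEF arrays read 4.53 and 3.98, both under the 40th percentile. The MEF-derived arrays read 14.18, 14.25, 14.25 and 14.21, and the TTF-derived arrays 13.58, 13.64, 13.56 and 13.54. The ieSC values of a kind lay close together, and the kinds did not overlap. By group the means were 4.26 ± 0.39 (SD, n = 2), 14.22 ± 0.03 (SD, n = 4) and 13.58 ± 0.04 (SD, n = 4), which puts the ieSC mean 9.64 above MEF, the third highest rise among the genes tested. Tlx2 passed the brightness filter through the ieSC arrays alone. The filter thus favoured a difference from MEF, and a ratio against the MEF level of Tlx2 rests on the floor of the array. Set against the highest 40th percentile of an array instead, the ieSC mean lay 8.88 above that line.

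TTF-derived ieSCs had less Tlx2 than MEF-derived ieSCs, by -0.64 ± 0.20 on the log2 scale, a ratio of 0.64 (limma, adjusted p = 0.0308, 95% interval -1.09 to -0.20). The SE of this fit takes in the spread of the MEF arrays. With the 8 ieSC arrays fitted alone, an alternative chosen after seeing the data, the difference was -0.64 ± 0.09 with an adjusted p of 0.000791. The call was lost without MEF-derived array 1b, 2a or 2b, TTF-derived array 1a, 2a or 2b, MEF-derived name 1 or 2, or TTF-derived name 2, where the difference was between -0.65 and -0.62 and the adjusted p between 0.0507 and 0.0737.

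**Figure D1:**
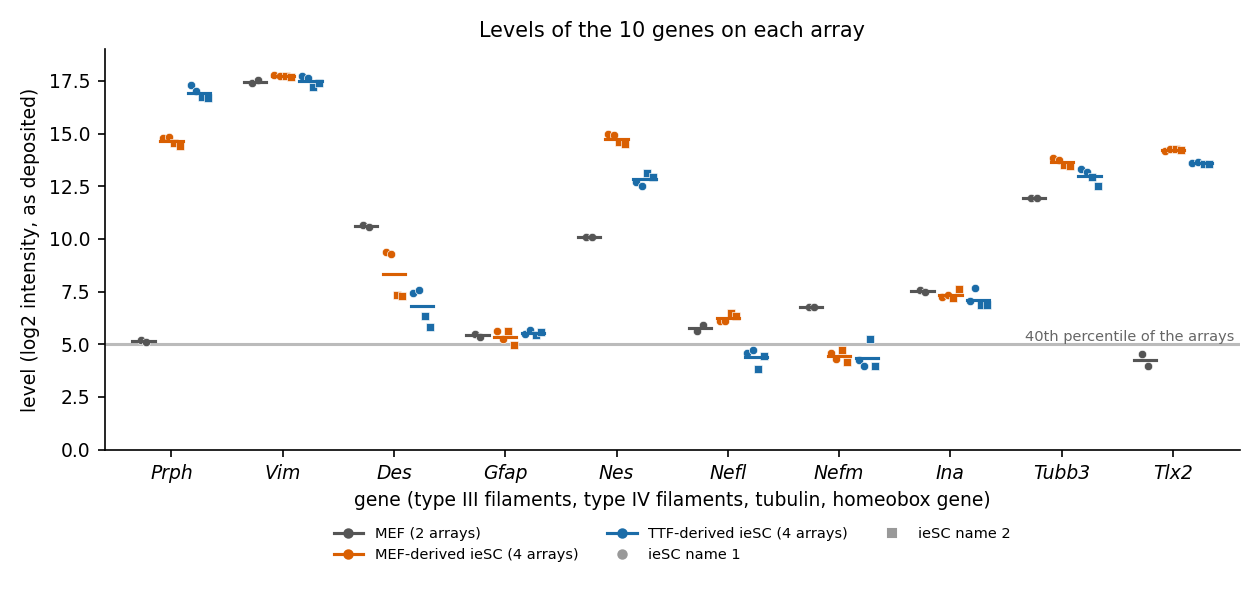
Levels of the 10 genes on each array, in deposited log2 intensity (vertical axis). Points are arrays (circles for MEF and for ieSC name 1, squares for ieSC name 2), short bars are group means, and the grey line is the 40th percentile of the arrays (4.988 to 5.023). On the MEF arrays Prph lies at 5.22 and 5.12, just above the grey line, and Tlx2 at 4.53 and 3.98, under it. Both lie between 13.54 and 17.31 on the ieSC arrays. Nes and Tubb3 rise from a level well above the grey line, and Nefm and Des fall.

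Among the type III relatives of Prph, vimentin stayed high in all cells, desmin fell, and Gfap stayed near the dim end. Vim read 17.39 and 17.53 on the MEF arrays, 17.78, 17.71, 17.74 and 17.66 on the MEF-derived arrays and 17.72, 17.63, 17.20 and 17.40 on the TTF-derived arrays. The TTF-derived values overlapped both other groups. The ieSC mean was 0.15 ± 0.16 above MEF (adjusted p = 0.498) with a 95% interval of -0.22 to 0.52, and TTF-derived minus MEF-derived ieSC was -0.24 ± 0.15 (adjusted p = 0.253; -0.42 and 0.0297 without TTF-derived name 1). Levels this high are near the top of the deposited range, which ends at 19.02.

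Des, the filament gene of muscle, read 10.68 and 10.55 on the MEF arrays, 9.40, 9.27, 7.32 and 7.31 on the MEF-derived arrays and 7.41, 7.59, 6.33 and 5.84 on the TTF-derived arrays. Every ieSC array lay below both MEF arrays, and the kinds of ieSC overlapped. The fall from MEF was -3.06 ± 0.68, a ratio of 0.12 (adjusted p = 0.00448), which lost its call at an adjusted p of 0.0901 when arrays of a name were averaged to 1 sample. Des split by name within each kind: name 2 minus name 1 was -2.02 for MEF-derived and -1.41 for TTF-derived cells. Against MEF the MEF-derived cells stood at -2.29 (adjusted p = 0.0281), a call lost without their name 2 (-1.28, adjusted p = 0.109) and without MEF array 1 (-2.23, adjusted p = 0.0643) or 2 (-2.35, adjusted p = 0.0533). The TTF-derived cells stood at -3.82 (adjusted p = 0.00231). Averaging arrays of a name ended these calls too (adjusted p = 0.18 and 0.0752). The difference between the kinds, -1.53 ± 0.61, was not called (adjusted p = 0.0792), and it was called without MEF-derived name 2 (-2.54, adjusted p = 0.00705), without TTF-derived name 1 (-2.24, adjusted p = 0.0368) and with the name number as a replicate block (adjusted p = 0.000444).

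Gfap, the filament of astrocytes, read 5.49 and 5.36 on the MEF arrays, between 4.95 and 5.64 on the MEF-derived and between 5.44 and 5.66 on the TTF-derived arrays. The 3 groups overlapped. Its difference between ieSC and MEF was 0.03 ± 0.32 (adjusted p = 0.953), with a 95% interval from -0.70 to 0.75. The 2 other Gfap features, both for another transcript, stayed under the filter at levels of 3.05 to 4.84.

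Among the type IV genes, nestin was far higher in ieSCs, neurofilament M was lower, neurofilament L differed by starting cell and alpha-internexin passed no test. Nes, a filament of neural progenitors, read 10.11 on both MEF arrays, 14.98, 14.92, 14.62 and 14.51 on the MEF-derived arrays and 12.69, 12.53, 13.15 and 12.94 on the TTF-derived arrays. No groups overlapped, and the order was MEF, TTF-derived, MEF-derived, the reverse of Prph for the kinds of ieSC. The rise over MEF was 3.68 ± 0.20, a fold of 12.9 (adjusted p = 5.07e-07), rank 248 of 16650 by size of rise. It was 4.65 ± 0.22 for ieSCs from MEFs (fold 25.1, adjusted p = 2.25e-07) and 2.72 ± 0.22 for ieSCs from TTFs (fold 6.58, adjusted p = 8.4e-06). These comparisons share the 2 MEF arrays. TTF-derived minus MEF-derived ieSC was -1.93 ± 0.18, a ratio of 0.262 (adjusted p = 4.62e-05).

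Nefl, the light neurofilament subunit, read 5.63 and 5.90 on the MEF arrays, 6.08, 6.11, 6.47 and 6.36 on the MEF-derived arrays and 4.60, 4.73, 3.83 and 4.42 on the TTF-derived arrays. TTF-derived values lay below all others and under the 40th percentile, so Nefl passed the filter through the MEF and MEF-derived arrays. The filter therefore favoured a difference between the TTF-derived cells and both other groups. Against MEF, Nefl fell by 1.37 when TTFs were the source (adjusted p = 0.00829). With MEFs as the source the difference was 0.49 ± 0.34 (adjusted p = 0.258, or 0.0458 without TTF-derived name 2). Over both kinds the difference was -0.44 ± 0.31 (adjusted p = 0.27). Between the kinds it was -1.86 ± 0.27 (adjusted p = 0.000712), with levels that run into the array floor on the TTF-derived side.

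Nefm, the medium neurofilament subunit, read 6.78 and 6.75 on the MEF arrays, 4.60, 4.31, 4.74 and 4.16 on the MEF-derived arrays and 4.24, 3.97, 5.23 and 3.98 on the TTF-derived arrays. Of the ieSC arrays, 1 was above the 40th percentile, so Nefm passed the filter through the MEF arrays, and the filter favoured a difference. The fall was -2.36 ± 0.56 (adjusted p = 0.00611), a size that depends on the array floor. Between the kinds of ieSC the difference was -0.10 ± 0.50 (adjusted p = 0.909). In MEF-derived ieSCs the fall of -2.31 (adjusted p = 0.0106) lost its call without MEF-derived name 1 (-1.82, adjusted p = 0.0854) and without TTF-derived array 2a (adjusted p = 0.0564). In TTF-derived ieSCs it was -2.41 (adjusted p = 0.00976).

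Ina, the fourth neuronal filament subunit, read 7.59 and 7.48 on the MEF arrays, 7.21 to 7.61 on the MEF-derived and 6.86 to 7.68 on the TTF-derived arrays. All groups overlapped. Its difference from MEF was -0.30 ± 0.32 (adjusted p = 0.469) and between the kinds -0.23 ± 0.29 (adjusted p = 0.591). TTF-derived ieSCs differed from MEF by -0.42 (adjusted p = 0.374), or by -0.67 without TTF-derived name 1 (adjusted p = 0.0274). A second Ina feature stayed at 3.81 to 4.54 on all arrays.

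Desmin and neurofilament M each had 10 features with 1 transcript accession, and these show how far the choice of a feature matters. The 10 Des features gave ieSC minus MEF differences from -3.11 to -2.77 with a median of -3.01. For Nefm they ran from -2.97 to -2.36 with a median of -2.66, and the feature used above, the brightest, was at the small end. On 10 of 10 features of each gene, all 8 ieSC arrays lay below both MEF arrays. On 10 of 10 Des features MEF-derived name 1 was the highest of the ieSC names and TTF-derived name 2 the lowest. Nefm values were between 6.55 and 6.97 on the MEF arrays, and 3 of 80 values on the ieSC arrays were above the 40th percentile.

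**Figure D2:**
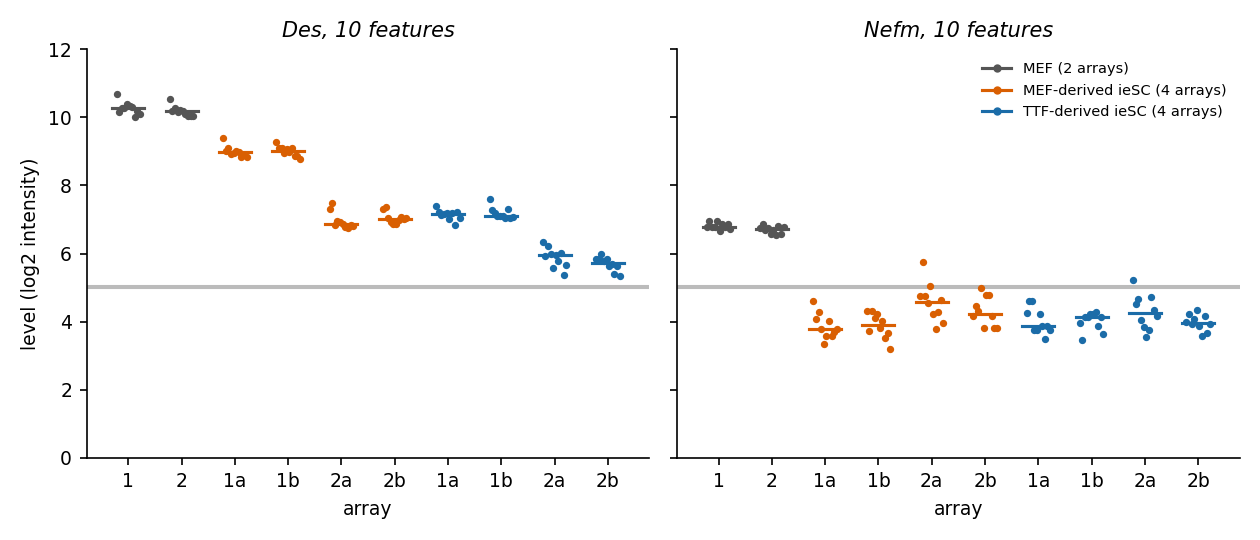
The 10 features of Des (left) and of Nefm (right) on each of the 10 arrays, in deposited log2 intensity; points are features, short bars their median on that array, and the grey line is the 40th percentile. Des features move together and split by name (arrays 1a and 1b against 2a and 2b of a kind), and Nefm features lie between 6.55 and 6.97 on the MEF arrays and, but for 3 of 80 values, under the grey line on the ieSC arrays.

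Tubb3, the neuronal beta-tubulin, was already well above the dim end in MEFs and rose further. It read 11.95 on both MEF arrays, 13.82, 13.75, 13.53 and 13.44 on the MEF-derived arrays and 13.31, 13.16, 12.93 and 12.52 on the TTF-derived arrays. No groups overlapped, and the order was again MEF, TTF-derived, MEF-derived. The rise was 1.36 ± 0.24, a fold of 2.56 (adjusted p = 0.0012), made up of 1.68 for ieSCs from MEFs (adjusted p = 0.000533) and 1.03 for those from TTFs (adjusted p = 0.0103). The last of these lost its call with arrays of a name averaged (adjusted p = 0.0726). The difference between the kinds, -0.65 ± 0.21 (adjusted p = 0.0398), lost its call without either MEF array, MEF-derived array 1a, 1b or 2a, TTF-derived array 1b, MEF-derived name 1 or TTF-derived name 2, with arrays of a name averaged, and with the ieSC arrays alone. There it was between -0.65 and -0.40, with adjusted p-values from 0.0577 to 0.173.

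Counted over the 8 genes taken as relatives, 2 were called higher in ieSCs than in MEFs (Nes, Tubb3), 2 lower (Nefm, Des) and 4 passed no test, where 25.9% of all genes tested were called higher and 23.6% lower. The filter favoured a difference for Nefm, as said above, and 1 lower gene (Des) is left without Nefm. For MEF-derived ieSCs against MEF the counts were 2 higher and 2 lower, against a background of 27.2% and 24%. For TTF-derived ieSCs against the same MEF arrays they were 2 higher and 3 lower, against 23.3% and 21.9%. All but the last of these counts lie near the background share, and that one is 1 gene more (Nefl); Nefm is among the lower genes each time. Between the kinds of ieSC, 1 of all 10 genes was called higher in TTF-derived cells (Prph) and 4 lower (Tlx2, Nes, Nefl, Tubb3), where 16.8% of all genes were called higher and 19.3% lower. The filter favoured a difference for Nefl in this comparison too. Prph was the single gene of the 10 with its highest levels in TTF-derived ieSCs that passed this test.

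**Figure D3:**
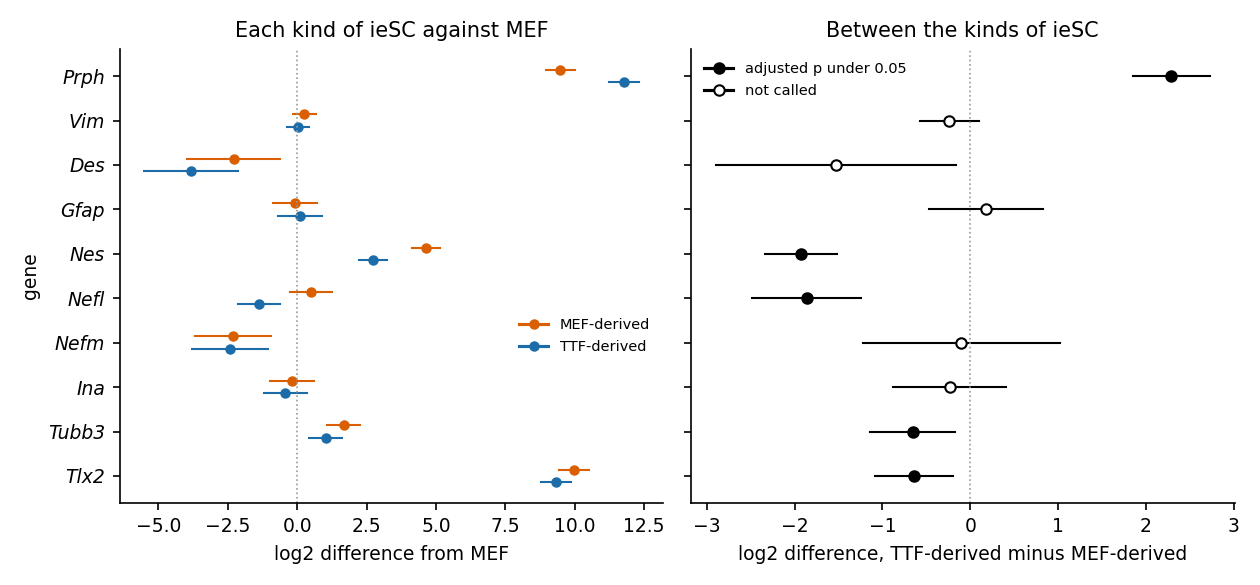
Log2 differences of the 10 genes with 95% intervals from the fit. Left, each kind of ieSC minus MEF, with Prph at 9.48 and 11.77 and Tlx2 at 9.97 and 9.32, both chosen by this difference; right, TTF-derived minus MEF-derived ieSC, with filled points for an adjusted p under 0.05. On the right Prph lies at 2.29 and the other filled points, Nes, Nefl, Tubb3 and Tlx2, lie between -1.93 and -0.64.

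A further 7 intermediate filament genes were read beside the 10. Of 6 tested, 3 rose, 1 fell and 2 passed no test, with a median difference of 0.47, where 25.9% of all genes were called higher and 23.6% lower. Synemin (Synm), a large filament protein that joins vimentin or desmin filaments, rose by 1.80 ± 0.29 (adjusted p = 0.000741). The lens filament gene Bfsp2 rose by 1.11 (adjusted p = 0.0115) and its partner Bfsp1 fell by 0.79 (adjusted p = 0.00129). In MEF-derived ieSCs against MEF neither was called (0.76, adjusted p = 0.0766, and -0.28, adjusted p = 0.159). In TTF-derived ieSCs against MEF both were (1.46, adjusted p = 0.00483, and -1.30, adjusted p = 0.00011). By kind, 1 of the 6 was higher and 0 lower in MEF-derived ieSCs (27.2% and 24% of all genes), and 3 higher and 1 lower in TTF-derived ieSCs (23.3% and 21.9%). The heavy neurofilament gene Nefh was too dim to test.

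Whether neural genes at large were higher in ieSCs was read from 5 lists: neuronal tubulins and microtubule proteins, pan-neuronal genes, genes of autonomic, enteric and sensory neurons, genes of neural progenitors and neural crest, and genes of glia. Of 88 genes tested in these lists, 17 were called higher in ieSCs than in MEFs (19.3%) and 33 lower (37.5%), with a median difference of -0.23. Over all genes 25.9% were called higher and 23.6% lower, as above, and the median was 0.085. Of the 17, 2 (Pou4f1, Tlx3) had fewer than 2 MEF arrays above the 40th percentile. Of the 33, 8 (Elavl2, Fabp7, Ret, Scg2, Stmn2, Syt1, Tfap2b, Zic2) had fewer than 2 ieSC arrays above it. These passed the filter through 1 group, so the filter favoured a difference but did not force a call. The sizes of their changes rest on the array floor, and nothing is read from the shares. With arrays of a name averaged to 1 sample, 11 of the genes named below (Map6, Gap43, Nsg1, Sox1, Prom1, Cnp, Slc1a3, Egr2, Rcor1, Acta1 and Id3) lost their calls, with adjusted p-values of 0.0514 to 0.192. Under the alternatives tried, the higher count ran from 14 to 22 and the lower count from 22 to 38. The lists were drawn up with earlier results of these data known.

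Microtubule genes of neurons went both ways. Of 22 tested, 5 were higher, 6 lower and 11 not called (median -0.16), near the shares over all genes of 25.9% higher and 23.6% lower. Mapt, which encodes the axonal microtubule protein tau, had mean levels of 6.41 (MEF), 10.85 (ieSC from MEF) and 10.37 (ieSC from TTF), a rise of 4.20 ± 0.16 (adjusted p = 6.18e-08). Stmn4, a stathmin that binds tubulin, rose by 3.68 ± 0.37 (adjusted p = 3.15e-05). Dpysl5 rose by 1.75 (adjusted p = 0.000419), though its second feature differed by 0.03 only, and Map6, a microtubule-stabilizing protein, rose by 0.89 (adjusted p = 0.00428). Against MEF, Map6 was called in MEF-derived ieSCs (1.36, adjusted p = 0.000581) and not in TTF-derived ieSCs (0.42, adjusted p = 0.145). On the other side the collapsin response mediator genes Dpysl4 and Dpysl3 fell (-7.03, adjusted p = 6.16e-07, and -6.25, adjusted p = 2.61e-05, with -3.67 by a second Dpysl3 feature). The ieSC mean of Dpysl4 was 5.03, with 4 of 8 ieSC arrays above the 40th percentile, so the size of its fall rests on the floor. The growth cone gene Gap43 fell by 4.76 (adjusted p = 0.00469). Stmn2, a neuronal stathmin, went from 6.55 on the MEF arrays to 3.81 in ieSCs, under the 40th percentile on all 8 arrays. It is one of the genes for which the filter favoured a difference.

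Of 22 pan-neuronal genes tested, 1 rose, 13 fell and 8 were not called, with a median of -0.51. Over all genes 25.9% were called higher and 23.6% lower. Those that fell include Elavl2, Scg2 and Syt1, which passed the filter through the MEF arrays alone. For these the filter favoured a difference, so nothing is read from this count. The one that rose was Scg5, a secretory granule chaperone, by 2.00 ± 0.51 (adjusted p = 0.00956). Scg2, a secretogranin, went from a MEF level of 10.51 to 4.56, with 0 ieSC arrays above the 40th percentile. The filter favoured a difference here, and its size of -5.94 rests on the floor. The synaptic fusion gene Snap25 fell by 2.35 (adjusted p = 4.48e-05) from 13.63. The endosomal neuronal gene Nsg1 fell by 1.88 (adjusted p = 0.00625). For Elavl2, an RNA-binding protein of neurons, the filter also favoured a difference (-2.32, from 5.63 to 3.32). With no filter on dim features another feature stood for Elavl2 and gave -0.27 (adjusted p = 0.616). Elavl4 differed by 0.51 (adjusted p = 0.124), and Elavl3 was too dim to test at levels of 4.17 to 5.05.

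Of the genes of autonomic, enteric and sensory neurons, 5 of 19 tested were higher, 7 lower and 7 not called (median -0.76). The shares over all genes were 25.9% higher and 23.6% lower. Pou4f1, a POU homeobox factor of sensory neurons, had the largest positive difference of the genes tested in the 5 neural lists. It read 4.76 and 4.80 on the MEF arrays, 10.52 to 11.19 on the MEF-derived and 11.65 to 12.09 on the TTF-derived arrays, with no overlap between groups. Pou4f1 was above the 40th percentile on 0 MEF arrays and passed the filter through the ieSC arrays alone. The filter thus favoured a difference, and its size of 6.61 rests on the array floor. Tlx3, a relative of Tlx2, was above the 40th percentile on 0 MEF and 3 ieSC arrays, with mean levels of 3.84 and 5.04. The filter favoured a difference for Tlx3 as well. Its call was lost without MEF array 2 (adjusted p = 0.0798) and without TTF-derived array 2b (adjusted p = 0.0503). Against MEF, Tlx3 was called in MEF-derived ieSCs (1.38, adjusted p = 0.0181) and not in TTF-derived ieSCs (1.01, adjusted p = 0.0707). Smaller rises were those of Slc18a2, a vesicular monoamine transporter (1.07, adjusted p = 0.000232), and the zinc finger factor Gata2 (1.01, adjusted p = 0.00054). Receptors and factors of enteric and sympathetic neurons were among those that fell: Gfra2 (-6.20, adjusted p = 6.45e-05), Hand2 (-5.25, adjusted p = 2.02e-07), the neurotrophin receptor Ntrk3 (-4.32, adjusted p = 7.35e-08, with -2.51 by its least changed feature) and the endothelin receptor Ednrb (-4.30, adjusted p = 6.62e-06). Hand2 had an ieSC mean of 4.89, with 2 ieSC arrays above the 40th percentile, so the size of its fall rests on the floor.

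Neural progenitor and neural crest genes were split as well, with 4 of 13 tested higher, 5 lower and 4 not called (median -0.05). Beside this, 25.9% of all genes were called higher and 23.6% lower. Pax3, a paired box factor of neural crest and muscle precursors, rose by 3.63 ± 0.14 (adjusted p = 6.1e-08), the Notch ligand Dll1 by 3.48 ± 0.39 (adjusted p = 6.36e-05) and the AP-2 factor Tfap2a by 3.11 ± 0.13 (adjusted p = 1.06e-07; 1.20 by its second feature). Sox1 rose by 1.19 (adjusted p = 0.0302), a call lost with the mean over its features (0.54, adjusted p = 0.143), without MEF array 1 (0.95, adjusted p = 0.096) and without TTF-derived array 2a (1.16, adjusted p = 0.0528). Against MEF, Sox1 was called in MEF-derived ieSCs (1.47, adjusted p = 0.0171) and not in TTF-derived ieSCs (0.91, adjusted p = 0.115). Prom1 fell by 2.02 (adjusted p = 0.00206), with 4 ieSC arrays above the 40th percentile. Zic2, the lipid-binding protein Fabp7 of radial glia and the AP-2 factor Tfap2b went from 7.96, 8.31 and 7.61 on the MEF arrays to 3.88, 4.26 and 3.65 in ieSCs. They were above the 40th percentile on 0 ieSC arrays, so the filter favoured a difference, and the sizes (-4.08, -4.06 and -3.96) rest on the floor. Sox2 was too dim to test at 2.90 to 4.24.

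Of 12 glial genes tested, 2 were higher, 2 lower and 8 not called (median 0.05), against 25.9% higher and 23.6% lower over all genes. Mbp, which encodes a myelin protein and transcripts used outside glia, rose by 2.19 ± 0.18 (adjusted p = 8.6e-06), with 0.54 by its least changed feature. Cnp rose by 0.37 (adjusted p = 0.036), a call lost without either MEF array, MEF-derived array 2a, TTF-derived array 1b, 2a or 2b, or TTF-derived name 1 (0.33 to 0.39, adjusted p = 0.0521 to 0.088). Against MEF, Cnp was called in MEF-derived ieSCs (0.51, adjusted p = 0.0123) and not in TTF-derived ieSCs (0.23, adjusted p = 0.217). The glutamate transporter Slc1a3 fell by 6.49 ± 1.09 (adjusted p = 0.000864), and the Schwann cell factor Egr2 fell by 2.66 ± 0.57 (adjusted p = 0.00363). Slc1a3 split by name within each kind: 6.30 to 6.68 on name 1 arrays and 3.35 to 4.08 on name 2 arrays. Its name 2 arrays were under the 40th percentile, so the size of its fall rests in part on the floor. Sox10 differed by 0.19 ± 0.21 (adjusted p = 0.489).

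**Figure D4:**
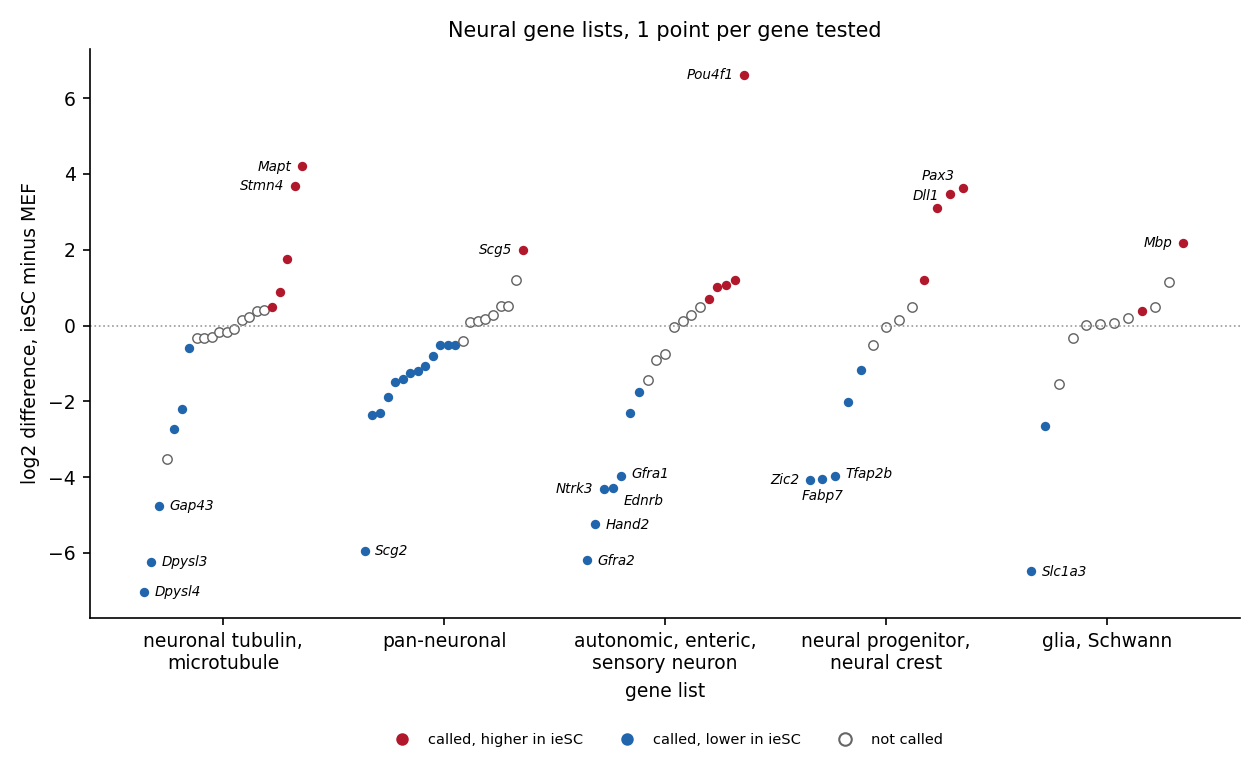
Log2 difference, ieSC minus MEF, for each tested gene of the 5 neural lists, ordered by size within a list; colour marks genes called higher (17) or lower (33), and open points the rest of the 88. Pou4f1 (6.61), Mapt (4.20), Stmn4 (3.68), Pax3 (3.63) and Dll1 (3.48) lie highest, and Dpysl4 (-7.03), Slc1a3, Dpysl3, Gfra2 and Scg2 (-5.94) lie lowest.

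The defining markers of other cells the cultures could hold were read over whole lists. Of 6 neuron markers, 4 were above the 40th percentile on both MEF arrays and 2 on all 8 ieSC arrays, Elavl4 and Snap25, and their mean level was 7.08 to 7.10 on the MEF arrays and 6.22 to 6.36 on the ieSC arrays. For 4 markers of autonomic or enteric neurons the mean level was 5.62 to 5.67 on MEF and 4.66 to 5.31 on ieSC arrays, with 1 marker, Th, above the line on every ieSC array. The 4 neural progenitor markers had mean levels of 5.90 to 5.94 and 4.52 to 5.32 in the same order, and Sox2 and Pax6 were above the line on no array. The 2 glial markers Sox10 and S100b had mean levels of 6.93 to 7.22 on MEF and 5.61 to 7.33 on ieSC arrays. No mean marker level of these classes lay higher on all ieSC arrays than on both MEF arrays.

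The other 3 lists bear on single genes above. Their counts stand beside shares over all genes of 25.9% higher and 23.6% lower, and nothing is read from them. Of 7 repressors and regulators that hold neuronal genes off in other cells, 1 was higher, 2 lower and 4 not called. Rest, the repressor that binds the silencer element of many neuronal genes, differed by -0.20 (adjusted p = 0.232). Among its corepressors Rcor2 rose by 2.34 ± 0.20 (adjusted p = 9.57e-06), Rcor3 fell by 0.96 (adjusted p = 0.000574) and Rcor1 fell by 0.48 (adjusted p = 0.0157; a second feature differed by 0.03, and the mean over features by -0.22, adjusted p = 0.23). Of 11 tested muscle genes around desmin, 1 was higher, 5 lower and 5 not called. Among the lower genes was Actc1, for which the filter favoured a difference. The skeletal muscle genes Acta1 (-2.05, adjusted p = 0.00169), Tnnt1 (-1.89, adjusted p = 2.64e-06) and Mef2c (-1.69, adjusted p = 0.000755) fell. Against MEF, Acta1 was called in TTF-derived ieSCs (-3.14, adjusted p = 0.00023) and not in MEF-derived ieSCs (-0.96, adjusted p = 0.0846). Cardiac actin Actc1 went from 6.27 to 3.55, with 0 ieSC arrays above the 40th percentile. The small heat shock gene Cryab, whose protein chaperones desmin and vimentin, rose by 1.15 ± 0.10 (adjusted p = 1.5e-05). The muscle factor Myog differed by 0.21 (adjusted p = 0.528), and 4 skeletal muscle markers had mean levels of 6.65 to 6.84 on MEF and 6.04 to 6.95 on ieSC arrays.

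BMP response genes, the targets of a signal to which Tlx2 is known to respond in the early embryo, gave 1 higher, 3 lower and 4 not called of 8 tested, with a median of -0.63. Over all genes the shares were 25.9% higher and 23.6% lower. Id1 rose by 0.92 ± 0.14 (adjusted p = 0.000446). Id4 fell by 6.77 (adjusted p = 2.08e-06), Msx2 fell by 2.63 (adjusted p = 2.74e-07) and Id3 fell by 1.29 (adjusted p = 0.00886). The ieSC mean of Id4 was 5.21, with 5 ieSC arrays above the 40th percentile, so the size of its fall rests on the floor.

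The genes beside Prph and Tlx2 on their chromosomes were read from the order of the RefSeq gene table. Near Prph on chromosome 15, Tuba1c, an alpha-tubulin gene, rose by 1.65 ± 0.29 (adjusted p = 0.00109), and Troap, a spindle protein gene, differed by -0.01 ± 0.26 (adjusted p = 0.979). The mean level of Troap was 6.76 for MEFs, 4.53 for ieSCs from MEFs and 8.97 for ieSCs from TTFs, so the kinds of ieSC lay on either side of MEF, 4.44 ± 0.23 apart (adjusted p = 1.17e-06). The other neighbours of Prph were RNA genes that were not tested. Near Tlx2 on chromosome 6, which spans 83068325 to 83070225, the homeobox gene Lbx2 rose by 1.61 ± 0.27 (adjusted p = 0.000884) and was 1.19 ± 0.24 higher in TTF-derived than MEF-derived ieSCs (adjusted p = 0.00426). Htra2, Aup1, Dqx1 and Pcgf1 differed from MEF by -0.04, 0.11, 0.51 and 0.47, with adjusted p-values of 0.785, 0.499, 0.0794 and 0.221.

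The genes whose levels ran most like those of Prph over the 10 arrays were Gm9732 (Pearson r = 0.9987), Zfp951 (0.9978), Vldlr (0.9972), Gm8096 and Syngr1 (both 0.9969). Vldlr encodes a lipoprotein and reelin receptor and Syngr1 a synaptic vesicle protein. Their rises over MEF ran from 1.27 for Gm8096 to 4.38 for Gm9732, whose 7 features gave 4.38 to 8.33. Most like Tlx2 were Gm10439 (0.9996), Rbbp9 (0.9990), Zfp345 (0.9989), Ucp3 and Hid1 (both 0.9983). Features of a gene disagreed here: the second Rbbp9 feature differed by 0.20 and the second Zfp345 feature by 1.77, against 3.18 and 5.03 for those used. An r of 0.99 or more was reached by 44 genes for Prph and 103 for Tlx2, of 16649 compared. These points share 3 groups of arrays, and the gap between MEF and ieSC sets most of each r. Over the 8 ieSC arrays alone the 5 genes gave 0.953 to 0.978 with Prph and 0.79 to 0.984 with Tlx2. Those arrays entered the choice of the genes as well. For every one of these genes the kinds of ieSC did not overlap, so the gap between the kinds enters these values too.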

How the data were processed

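Total RNA of 8 ieSC and 2 MEF samples was read on 1-colour arrays, grouped by their labelled source. The authors' deposited table holds log2 intensity per feature. The submitters' processing notes name limma. Its version, the background correction and the log base are not given in the sources used here; base 2 was taken from the range of values, 0.288 to 19.02, and the columns share 1 distribution, with medians of 5.759 to 5.782. Gene symbols came from the platform annotation, updated through the RefSeq gene table (GRCm38.p6): 31465 features had 1 symbol, 0 had several, and accessions of 29050 matched. Features above the 40th percentile on at least 2 arrays were kept (42617), and each gene was read from its kept feature with the highest mean. There are no detection flags, and depth does not apply to arrays.

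Group means were fitted to all 10 arrays by limma 3.58.1 (R 4.3.3, statmod 1.5.0) with the array name as a random block (consensus correlation 0.606), 7 residual degrees of freedom and a prior of 2.21. P-values are two-sided and adjusted by Benjamini-Hochberg over 16650 genes, with a threshold of 0.05. Values are log2 differences ± SE. The fit was tested on simulated data.

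The 10 genes and the 9 lists (149 genes, with Pax7 in a pair of lists) were chosen with earlier results of these data known. Named were all 10 genes and, from each list, up to 4 of the largest called rises and 4 of the largest called falls with every ieSC array on one side of both MEF arrays. Also named were Elavl3, Elavl4, Stmn2, Sox10, Sox2, Rest, Nefh and Myog, the 5 genes most like Prph and most like Tlx2, and 3 neighbours on either side. Some listed genes are not reported here. Alternatives changed the filter, the feature of a gene, the normalization, the block, the moderation and the arrays left out. Where in a transcript a feature lies was not used.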

Additional observations from a re-analysis of the deposited data

Results flagged for a closer look

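Levels of 62 named genes were searched for a single array far from the other 3 of its kind. Of 124 groups of 4 arrays, 2 had one: Pax3 at 10.75 on MEF-derived array 1a and Tnnt1 at 6.66 on MEF-derived array 1b. Chance gives about 1 in 20 for 4 independent arrays. Arrays that share a name are not independent, so that rate does not apply here.

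The rise or fall against MEF differed between TTF-derived and MEF-derived ieSCs, by the test of that difference, for 5 of the 10 genes, where 36% of all genes tested passed it. On the log2 scale, TTF-derived minus MEF-derived, it was 2.29 for Prph, -0.64 for Tlx2, -1.93 for Nes, -1.86 for Nefl and -0.65 for Tubb3 (adjusted p = 2.46e-05, 0.0308, 4.62e-05, 0.000712 and 0.0398 by limma).

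Among 52 named list genes the same test was passed by 16, against that background of 36%. Those higher in TTF-derived ieSCs were Synm (1.65), Dpysl3 (2.84), Pou4f1 (0.98), Slc18a2 (0.76), Prom1 (1.52), Egr2 (1.59), Rcor2 (0.59) and Rcor3 (0.57). Lower in them were Bfsp1 (-1.02), Mapt (-0.48), Map6 (-0.94), Snap25 (-0.74), Pax3 (-0.73), Cryab (-0.71), Acta1 (-2.18) and Sox10 (-0.63). With arrays of a name averaged, 13 of these 16 lost their calls (adjusted p from 0.0552 to 0.235), all but Slc18a2, Bfsp1 and Cryab. Sox10 (adjusted p = 0.0252) also lost its call without TTF-derived array 2a or 2b, or name 1 or 2 (adjusted p = 0.0505 to 0.0632). Egr2 lost its call under 13 alternatives and Rcor2 under 7. Without MEF-derived name 2 the Egr2 difference was 0.55 (adjusted p = 0.0636), and without MEF-derived name 1 the Rcor2 difference was 0.33 (adjusted p = 0.13). Snap25 lost its call without MEF-derived name 1 (-0.51, adjusted p = 0.159) or TTF-derived name 2 (-0.43, adjusted p = 0.143), and Mapt without MEF-derived array 2a (adjusted p = 0.0585) or name 1 (-0.44, adjusted p = 0.0791).

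Of the chromosomal neighbours, Troap beside Prph (4.44) and Lbx2 beside Tlx2 (1.19) differed between the kinds of ieSC as well. The size of the Troap difference rests in part on the array floor, since its MEF-derived mean was 4.53.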

How the results depend on the processing

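Of 928 alternative values for the 10 genes, 880 were unchanged, 28 lost a call, 6 gained one and 14 changed sign. Unchanged values kept their direction and their side of the threshold, except for Prph and Tlx2 against MEF, which were not tested. Those counted as unchanged when they kept their direction and moved by less than the largest group SD of the gene. The sign changes belonged to differences near 0 when arrays were left out: Vim in TTF-derived ieSCs against MEF (-0.16 to 0.22), Gfap in all ieSCs (-0.05 to 0.11) and in MEF-derived ieSCs (-0.21 to 0.10) against MEF, and Nefm (-0.91 to 0.16) and Ina (-0.49 to 0.02) between the kinds of ieSC; the cause was not tested. Prph between the kinds kept its call in all 25 alternatives (2.07 to 2.51). Tlx2 between the kinds ran from -0.67 to -0.62 when arrays or names were left out and kept its call in 16 of 25 alternatives. With arrays of a name averaged to 1 sample the counts of genes called fell from 8248 to 5493 (ieSC against MEF), from 7512 to 4763 (TTF-derived ieSC against MEF) and from 5998 to 2421 (between the kinds), with 5 samples in the fit. Of 1580 values for those results of listed and neighbouring genes that were called at first, 64 lost a call and 0 changed sign. Results not called at first were left out of this count, so no call could be gained. A filter at the 60th percentile left no value for Nefl, Nefm and Gfap. Names 1 and 2 of the kinds share only a number (correlation of their deviations 0.297 over 16650 genes). With that number as a replicate block the count between the kinds was 8339, with Prph at 2.29, Tlx2 at -0.64 and Des gaining a call at -1.53. The absence of detection flags limits every statement on genes near the 40th percentile.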
